A study of Mus musculus with 4 samples.

Results

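Arterial, venous and lymphatic endothelium are told apart by the genes they use, and 10 such vessel identity genes were followed here in a blood progenitor that derives from endothelium. They were Efnb2, Unc5b, Gja4, Gja5 and Bmx (arterial), Apln (the apelin ligand), Aplnr, Ephb4 and Nr2f2 (venous) and Prox1 (lymphatic). The genes were chosen by name from 21938 protein-coding genes of the GENCODE annotation. Every H3K27me3 peak inside a gene or within 10 kb of it was taken, together with every peak that the authors' annotated tables assign to the gene.

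The series profiled H3K27me3 by CUT&RUN in erythro-myeloid progenitors (EMPs) sorted from mouse yolk sac (YS) at E10.5. There was 1 H3K27me3 and 1 IgG control library from 500 EMPs and 1 of each from 15000 EMPs. In CUT&RUN, an antibody tethers a nuclease to chromatin in permeabilized cells and the released fragments are sequenced. All 4 libraries carried the labels C57BL/6 and Ezh2fl/fl; Tie2-Cre+/+ Wild type, and the study treats the cells as wild type (WT). Ezh2fl/fl is a conditional allele of the Polycomb methyltransferase Ezh2, and the Tie2 promoter drives Cre in endothelium and in blood cells derived from it. The number of yolk sacs behind each library is not given in the sources used here.

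The deposited files give the position of each peak but no height, score or read count, so a gene either had a peak or did not, and the measure of size was the number of base pairs (bp) under peaks. Peak calling used a p-value cutoff of 0.01 for 500 EMPs and 0.05 for 15000 EMPs. Cell number, threshold, PCR cycles (17 and 16), read length (76 and 59 bp) and sequencing instrument changed together, and the files themselves give no depth. The study's reporting summary lists fewer reads and a far lower rate of alignment for the 500 EMPs sample. The parts of all these in any difference between the lists cannot be told apart. With 1 library for each cell number there was no replicate check and no test, and all values below describe these libraries. Peak positions cannot show which cells were sorted, since a gene can lack a peak in any cell type. The 12 EMP and blood genes listed included Kit, Itga2b, Runx1, Myb, Spi1 and Gata1. Of these 12, 0 had a peak within 3 kb of the transcription start site (TSS) in either list. This cannot be told from the shares over all protein-coding genes, 9.92% (500 EMPs) and 17.0% (15000 EMPs), at this number of genes. The Fc receptor gene Fcgr3, 1 of the 12, had peaks farther out in its gene or its 10-kb flanks.

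H3K27me3 is placed by Polycomb repressive complex PRC2, of which Ezh2 is a catalytic subunit, and it typically covers the CpG-rich starts of developmental genes that a cell keeps silent. Arteries express the transmembrane ligand ephrin-B2 (Efnb2) and veins its receptor EphB4 (Ephb4), and signaling between them keeps both kinds of vessel apart. Nr2f2 encodes the orphan nuclear receptor COUP-TFII, which holds Notch signaling down in veins. Prox1 encodes the homeodomain factor that turns venous endothelial cells into lymphatic ones. EMPs arise from hemogenic endothelium of the YS and switch off endothelial genes as they become blood.

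The starts of these genes differ widely in CpG content. The 250 bases before the RefSeq start are printed for the 5 members that carried peaks within 3 kb of the start in ways the results turn on, followed by 2 members without any peak. Each runs 5′ to 3′ on the strand of the gene, on GRCm38.p6, and capitals mark CG dinucleotides. The last sequence is the middle of the Efnb2 peak of the 500 EMPs list, which lies in the first intron.
Nr2f2, chr7:70366747-70366996, minus strand: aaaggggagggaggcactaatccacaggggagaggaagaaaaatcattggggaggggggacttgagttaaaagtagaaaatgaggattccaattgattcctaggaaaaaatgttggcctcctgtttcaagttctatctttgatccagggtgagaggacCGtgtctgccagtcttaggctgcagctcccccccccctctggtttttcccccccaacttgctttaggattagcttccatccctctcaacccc
Unc5b, chr10:60831582-60831831, minus strand: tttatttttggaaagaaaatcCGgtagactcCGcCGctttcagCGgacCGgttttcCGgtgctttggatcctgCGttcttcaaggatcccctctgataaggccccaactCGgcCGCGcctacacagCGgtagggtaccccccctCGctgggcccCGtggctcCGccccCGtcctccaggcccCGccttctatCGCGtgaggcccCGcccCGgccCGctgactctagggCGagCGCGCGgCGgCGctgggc
Prox1, chr1:190170828-190171077, minus strand: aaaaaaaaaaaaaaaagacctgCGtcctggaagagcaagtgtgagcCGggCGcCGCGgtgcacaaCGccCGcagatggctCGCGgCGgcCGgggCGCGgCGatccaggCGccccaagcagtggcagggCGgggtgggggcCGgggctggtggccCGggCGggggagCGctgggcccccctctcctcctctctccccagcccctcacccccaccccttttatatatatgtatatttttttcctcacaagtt
Ephb4, chr5:137349859-137350108, plus strand: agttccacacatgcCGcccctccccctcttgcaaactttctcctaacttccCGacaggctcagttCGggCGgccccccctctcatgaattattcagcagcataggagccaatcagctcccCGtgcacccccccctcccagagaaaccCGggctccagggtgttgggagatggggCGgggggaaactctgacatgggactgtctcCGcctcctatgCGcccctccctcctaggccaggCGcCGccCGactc
Efnb2, chr8:8661243-8661492, minus strand: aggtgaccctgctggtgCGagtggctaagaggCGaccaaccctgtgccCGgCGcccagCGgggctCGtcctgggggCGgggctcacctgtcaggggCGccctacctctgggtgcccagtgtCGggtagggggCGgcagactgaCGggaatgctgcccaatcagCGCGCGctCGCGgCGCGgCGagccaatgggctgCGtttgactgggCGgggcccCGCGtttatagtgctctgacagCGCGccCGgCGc
Gja4, chr4:127314040-127314289, minus strand: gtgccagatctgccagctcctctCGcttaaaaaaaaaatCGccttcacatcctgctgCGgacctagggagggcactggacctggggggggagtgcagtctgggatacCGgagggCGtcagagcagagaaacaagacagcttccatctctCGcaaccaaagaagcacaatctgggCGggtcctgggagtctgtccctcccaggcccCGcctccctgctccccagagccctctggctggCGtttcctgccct
Bmx, chrX:164258194-164258443, minus strand: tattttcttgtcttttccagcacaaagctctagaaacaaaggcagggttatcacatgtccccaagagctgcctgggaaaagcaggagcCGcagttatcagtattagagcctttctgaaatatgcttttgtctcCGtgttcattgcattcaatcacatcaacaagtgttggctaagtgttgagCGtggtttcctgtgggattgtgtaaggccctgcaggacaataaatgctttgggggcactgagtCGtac
Efnb2 peak, chr8:8659765-8660014, minus strand: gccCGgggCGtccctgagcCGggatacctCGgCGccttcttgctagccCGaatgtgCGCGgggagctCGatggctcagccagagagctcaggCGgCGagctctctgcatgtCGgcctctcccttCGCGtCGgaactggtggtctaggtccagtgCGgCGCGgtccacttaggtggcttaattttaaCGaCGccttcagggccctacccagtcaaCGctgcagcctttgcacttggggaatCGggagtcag

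The Unc5b and Efnb2 windows each held 27 CG dinucleotides, the Prox1 window 20, the Ephb4 window 12, the Gja4 window 9, the Bmx window 4 and the Nr2f2 window 1. The median over 32851 promoter rows of the RefSeq table was 6.00. At least as many CG dinucleotides were found in 8.56% of these rows as in the Unc5b and Efnb2 windows, and in 92.1% as in the Nr2f2 window. The 15000 EMPs peaks covered all 250 bases printed for Nr2f2 and Unc5b, 232 of those for Ephb4 and 208 of those for Prox1. The 500 EMPs peaks covered 182 bases of the Unc5b window and 0 of the other 6 promoter windows. The 250 bases before the Efnb2 start were under no peak of either list, whereas the intronic sequence, with 22 CG dinucleotides, was under a peak in both. For Aplnr no promoter sequence is shown. Prox1 has a further RefSeq start, downstream of the one printed. The 250 bases before it (chr1:190169516-190169765) held 11 CG dinucleotides and lay under no peak of either list.

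Among the 10 genes, 4 had a peak in the gene or within 10 kb in the 500 EMPs list, namely Efnb2, Unc5b, Nr2f2 and Prox1. Of all protein-coding genes, 15.1% did. In the 15000 EMPs list the same 4 genes and Ephb4, Apln, Aplnr and Gja5 had one, 8 genes in all, against 25% of all protein-coding genes. Gja4 and Bmx had none in either list. Within 3 kb of the TSS the counts were 4 of 10 genes, beside 9.92% of all protein-coding genes, and 7 of 10 genes, beside 17.0%. Gja5 was the member that dropped out of the narrower window. No peak of the 500 EMPs list lay across the TSS base of any of the 10 genes, and in the 15000 EMPs list peaks lay across the TSS of Nr2f2, Unc5b and Aplnr. The authors' annotated tables named 4 and 7 of the genes.

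The peaks of the 10 genes numbered 31 of 10223 in the 500 EMPs list and 25 of 15282 in the 15000 EMPs list, and they covered 26584 bp and 59392 bp. Nr2f2 alone took 69.2% and 51.2% of these bases, and the other 9 genes together had 8195 bp and 28958 bp. All 31 of the 500 EMPs peaks overlapped a 15000 EMPs peak by at least 1 bp (100%, 95% Wilson interval 89.0 to 100%, counting error only), beside 91.2% of all peaks of that list. In the other direction 10 of 25 did (40.0%, 23.4 to 59.3%), beside 32.2% of all peaks. Neighboring peaks of 1 gene are not independent of each other, and 18 of the 31 and 6 of the 25 lay at Nr2f2.

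Efnb2 (chr8:8617434-8661242, minus strand), the arterial ephrin, had 1 peak in each list. The 500 EMPs peak was 663 bp wide, lay within the first intron of 20994 bp and ran from 1022 to 1684 bp downstream of the TSS. The 15000 EMPs peak contained it and ran from 629 to 2149 bp, 1521 bp in all, of which 130 bp were coding sequence of the first exon and the rest first intron. Neither reached the TSS, and Efnb2 was the only one of the 4 genes found in both lists with a single peak in each. The authors' table of 15000 EMPs also gave Efnb2 a 188-bp peak that lay 20292 bp beyond its downstream end and outside the 10-kb flank.

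Unc5b (chr10:60762593-60831581, minus strand), a netrin receptor of arterial and sprouting endothelium, had the most bases under peaks among the 5 arterial members. Peaks covered 2129 of the 6001 bp within 3 kb of its TSS at 500 EMPs and 5535 bp at 15000 EMPs, which ranked 376th and 311th among all protein-coding genes. It had 8 peaks in each list. Of these, 7 at 500 EMPs and 6 at 15000 EMPs lay in the first intron of 47804 bp. In the 15000 EMPs list a 3175-bp peak crossed the TSS and ran 3105 bp upstream, a 5193-bp peak began 536 bp into the gene, and a 4172-bp peak began 16767 bp into it. The 500 EMPs list had 1 narrow piece of 182 bp under the first of these, 3 pieces under the second and 4 under the third. A further stretch in the 15000 EMPs list, 3689 bp wide and 28583 bp into the gene, had no peak at 500 EMPs. The first intron also holds Gm19972, a transcript of unsettled coding status, under the third stretch.

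Gja4 and Gja5 encode the gap junction connexins of arterial endothelium. Gja4 (chr4:127311421-127314039, minus strand) had no peak in its gene or flanks in either list.

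Gja5 (chr3:96904693-97077416, plus strand) had 0 peaks at 500 EMPs and 1 peak of 351 bp at 15000 EMPs, and the peak is hard to tie to Gja5. GENCODE draws the gene over 172724 bp because 1 of its 3 transcripts starts 127709 bp upstream of the RefSeq start. The peak lay 10110 bp into that long form and 117249 bp from the RefSeq start. The authors' table gave it to Gpr89. No peak of either list lay within 3 kb of the RefSeq start.

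Bmx (chrX:164192842-164258193, minus strand), a Tec-family kinase of arterial endothelium and endocardium, was farthest from any peak. The nearest lay 1335035 bp from the gene at 500 EMPs and 430942 bp at 15000 EMPs. Bmx and Apln are the X-linked members, and peaks were scarcer on X throughout. Within 3 kb of the TSS, 4.64% and 9.60% of 948 X-linked protein-coding genes had a peak, against 10.3% and 17.5% of 20807 autosomal ones.

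**Figure D1:**
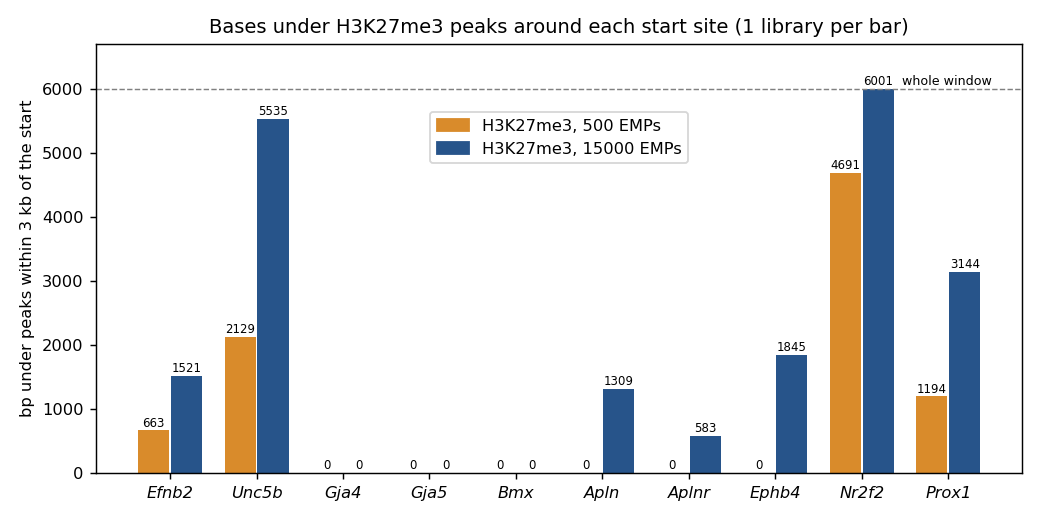
Base pairs under H3K27me3 peaks within 3 kb on either side of the TSS of each gene, 1 bar for the single library of 500 EMPs (orange) and 15000 EMPs (blue), with the window of 6001 bp as a dashed line. Nr2f2 filled the window at 15000 EMPs, the 4 genes with a value at 500 EMPs all had a larger one at 15000 EMPs, and Gja4, Gja5 and Bmx stood at 0.

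Apln and Aplnr encode the apelin ligand, which marks sprouting tip cells, and its G protein-coupled receptor, which marks early veins. Neither had a peak at 500 EMPs, where the nearest peaks lay 132213 bp and 247972 bp away. At 15000 EMPs each had a pair of narrow peaks near the TSS. Those of Apln (chrX:48025146-48034853, minus strand) were 581 bp and 728 bp wide and lay in its first intron, 738 to 2552 bp downstream of the TSS. Those of Aplnr (chr2:85136225-85139923, plus strand) were 245 bp wide across the TSS and 338 bp wide in the coding sequence. With 1309 bp and 583 bp within 3 kb of the TSS, ligand and receptor both lay below the lower quartile of 1352 bp over the protein-coding genes with a peak there.

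Ephb4 (chr5:137350109-137378669, plus strand), the venous receptor of Efnb2, likewise had peaks in the 15000 EMPs list alone. Both lay upstream of the gene, were 916 bp and 929 bp wide, and the nearer one ended 19 bp before the TSS. None of the 28561 bp of the gene body was under a peak. At Efnb2, by comparison, all peak bases within the 10-kb flanks lay inside the gene, so ligand and receptor carried their peaks on opposite sides of the TSS. At 500 EMPs the peak nearest to Ephb4 lay 105503 bp away.

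Nr2f2 (chr7:70351944-70366735, minus strand) was covered far more broadly than any other member. Within 3 kb of its TSS, 4691 of 6001 bp (78.2%) were under peaks at 500 EMPs, which ranked 29th among all protein-coding genes. At 15000 EMPs the window was covered whole (100%), as it was for 139 protein-coding genes in all. Around the start of the transcript with the longest coding sequence, 6142 bp downstream, 2597 bp and 4461 bp were covered. The medians over protein-coding genes with a peak in this window were 789 bp and 2743 bp. Over the gene and its 10-kb flanks, 18389 bp in 18 peaks and 30434 bp in 6 peaks were covered, of 34792 bp. The fewer, wider peaks at 15000 EMPs ran over the same ground: the widest, 11876 bp, crossed the TSS and overlapped 6 peaks of the 500 EMPs list.

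The covered stretch reached beyond the gene on both sides. With peaks less than 3 kb apart joined, it spanned 52102 bp (chr7:70322154-70374255) at 500 EMPs and 55151 bp (chr7:70321923-70377073) at 15000 EMPs. These were the 6th widest of 3971 and the 9th widest of 6706 such joined stretches. Both ran about equally far past the 3′ end of the gene, by 29790 bp and 30021 bp, and by 7520 bp and 10338 bp upstream of the TSS. Peaks filled 58.5% of the stretch at 500 EMPs, in 28 peaks, and 90.8% at 15000 EMPs, in 8 peaks. The stretch also holds non-coding neighbors, among them B130024G19Rik, which starts inside Nr2f2 on the other strand, and the lincRNA gene Gm28258. CUT&RUN fragments carry no strand of the transcript, so a peak shared by such genes cannot be assigned to 1 of them.

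The authors' tables credited part of these peaks to Nr2f2. Of the peaks in the gene or its 10-kb flanks, 4 of 18 at 500 EMPs and 3 of 6 at 15000 EMPs were given to it, the latter with the widest peak of 11876 bp. Of the peaks that touch the gene, 0 of 8 at 500 EMPs and 1 of 3 at 15000 EMPs were given to it, and the others went to B130024G19Rik or to the lincRNA gene Gm29683. A search of the tables by symbol therefore misses part of the coverage of Nr2f2 that the positions show.

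The tables did give Nr2f2 a set of peaks far upstream. There were 7 such peaks at 500 EMPs, with near edges 224935 to 422685 bp upstream of the TSS, and 21 at 15000 EMPs, from 147367 to 657576 bp. They covered 3151 bp and 17930 bp. Of the 7, 5 overlapped the 15000 EMPs list, beside 91.2% of all peaks, and of the 21, 4 overlapped the 500 EMPs list, beside 32.2%. When peaks within 20 kb of each other were grouped, they fell into 3 and 5 groups. The largest group at 15000 EMPs held 12 peaks and 11624 bp between 255760 and 280491 bp upstream, with its widest peak of 3446 bp over the lincRNA gene Gm44808. At 500 EMPs the largest group lay at the same place, with 4 peaks and 2346 bp. The assignment to Nr2f2 rests on distance, and no contact between these regions and the gene was measured.

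**Figure D2:**
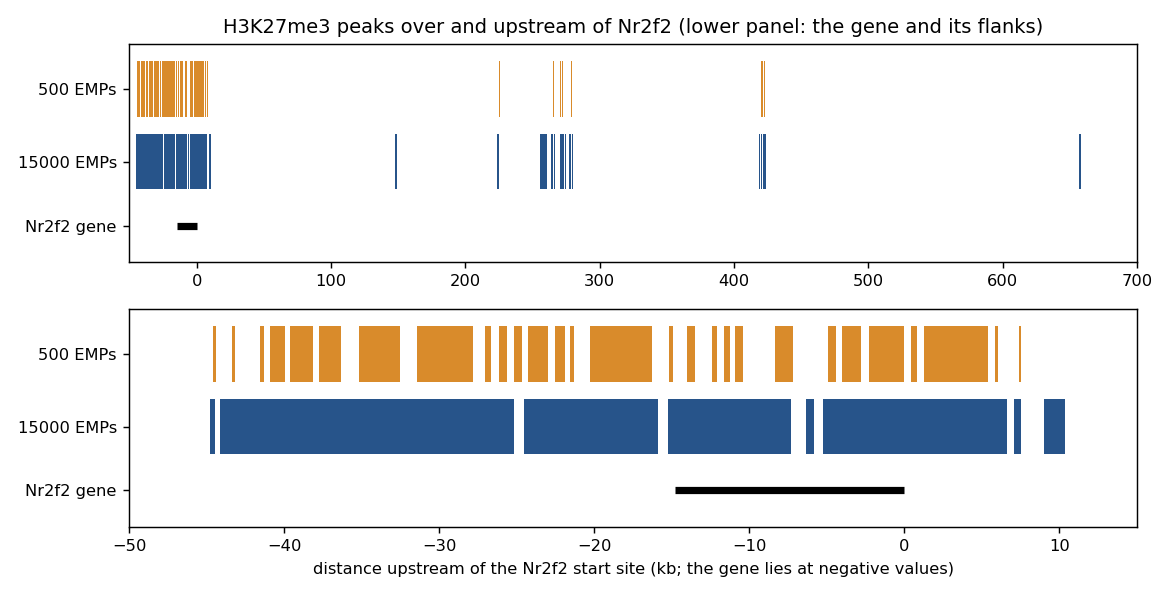
Peaks of both lists (orange, 500 EMPs; blue, 15000 EMPs) against distance upstream of the Nr2f2 TSS in kb, over the whole interval (top; peaks narrower than the line are widened to stay visible) and over the gene and its flanks (bottom; gene in black). A dense block of peaks reached past both ends of the gene, and sparse groups stood far upstream, the largest between 255760 and 280491 bp.

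Prox1 (chr1:190118035-190170714, minus strand), the lymphatic factor, had its peaks almost wholly upstream. At 500 EMPs there were 4 peaks with 2480 bp, from 1227 to 5743 bp upstream of the TSS, and none of the 52680 bp of the gene body was covered. At 15000 EMPs a 3094-bp and a 2872-bp peak filled nearly the same interval, from 156 to 6370 bp upstream, and a 299-bp peak lay in an intron, where the antisense gene Gm28172 also lies. All upstream peaks lay over Prox1os, an antisense gene that begins within Prox1, and the authors' table credited the intronic peak to Prox1os. Within 3 kb of the TSS 1194 bp and 3144 bp were covered, above the medians of 789 bp and 2743 bp over protein-coding genes with a peak there. Around the start of the transcript with the longest coding sequence, 1315 bp downstream, the values were 137 bp and 1829 bp, below those medians.

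By bases under peaks within 3 kb of the TSS, the order was Nr2f2, Unc5b, Prox1 and Efnb2 in both lists. At 15000 EMPs Ephb4 stood between Prox1 and Efnb2, followed by Apln and Aplnr. With the starts of the longest coding transcripts, Prox1 came after Efnb2 at 500 EMPs, and at 15000 EMPs Unc5b came before Nr2f2 and Ephb4 before Prox1. Since there is 1 library for each cell number, no spread is known and neighbors in this order cannot be said to differ. Over the members with a peak in the window the medians were 1662 bp and 1845 bp, the first above and the second below the medians of 789 bp and 2743 bp over all protein-coding genes with one. The quartiles of those genes were 346 and 1639 bp at 500 EMPs and 1352 and 4353 bp at 15000 EMPs.

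CpG content at the start, taken at the GENCODE TSS alone, did not order the 10 genes. It was measured as the observed over the expected number of CG dinucleotides within 500 bp of the GENCODE TSS, whose median over protein-coding genes was 0.552. Unc5b (0.978), Efnb2 (0.956) and Prox1 (0.794) were CpG-rich, with the highest ratios of the 10 genes, and had peaks in both lists. Nr2f2, with the most bases under peaks, stood at 0.258, and Aplnr at 0.133. Apln (0.663), Gja5 (0.642) and Ephb4 (0.616) lay close together, although only Apln and Ephb4 had peaks there, at 15000 EMPs. Gja4 (0.472) and Bmx (0.352), without peaks, lay between Nr2f2 and Ephb4. A 549-bp peak of the 500 EMPs list between this start of Nr2f2 and the downstream one had a ratio of 1.02. At the downstream start of Nr2f2 no ratio was computed, so its low value holds for the GENCODE TSS only.

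Across all protein-coding genes the share with a peak within 3 kb of the TSS was 13.5% and 21.5% at ratios of 0.6 and above, and 6.88% and 13.2% below. By classes of the ratio it was highest from 0.6 to 0.7 at 500 EMPs (17.6%) and from 0.5 to 0.6 at 15000 EMPs (31.9%). In the class of Nr2f2, from 0.2 to 0.3, it was 4.18% and 8.62%. Read together, the peak sequences of the members had ratios of 0.441 and 0.396, beside 0.354 and 0.376 for all peaks of each list.

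**Figure D3:**
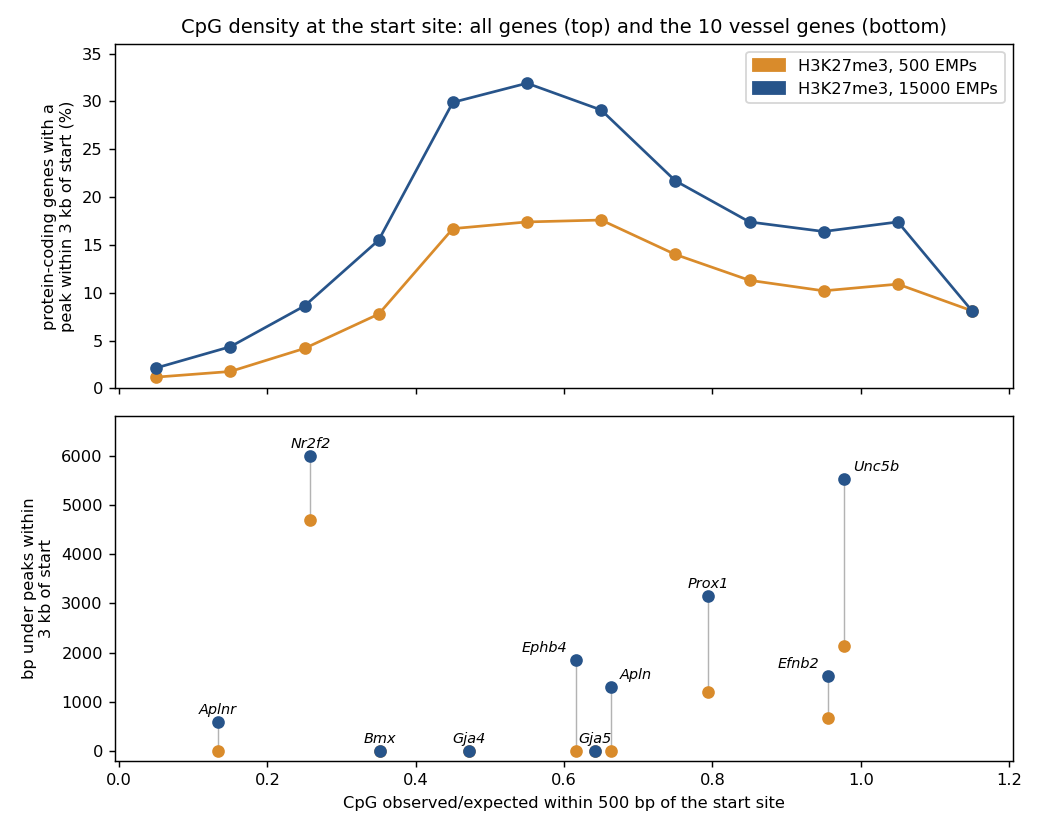
Top, share of protein-coding genes with a peak within 3 kb of the TSS in classes of the CpG observed/expected ratio within 500 bp of the TSS (the last class holds 37 genes); bottom, bp under peaks within 3 kb of the TSS for the 10 genes, with a gray line joining the values of 500 EMPs (orange) and 15000 EMPs (blue). At the GENCODE TSS used here, Nr2f2 stood highest at a ratio of 0.258, where few genes had a peak. With the starts of the longest coding transcripts Nr2f2 came after Unc5b at 15000 EMPs, and no ratio was computed at those starts.

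The closest relatives of the 10 genes were examined in the same way. Within 3 kb of the TSS, 7 of 22 relatives (31.8%) had a peak at 500 EMPs and 11 at 15000 EMPs, beside 9.92% and 17.0% of all protein-coding genes. Median bp under peaks in this window were 0 and 254 over the relatives, 0 and 1415 over the 10 genes, and 0 and 0 over all protein-coding genes. The Unc5 receptors were covered as a family: Unc5a, Unc5c and Unc5d all had peaks in both lists, with 692, 828 and 557 bp at 500 EMPs and 4970, 4513 and 2795 bp at 15000 EMPs. Nr2f1, the paralog of Nr2f2 known from neural development, was also covered broadly, with 19365 bp and 28734 bp in the gene and its 10-kb flanks, whereas Nr2f6 had none. Among the EphB receptors and ephrin-B ligands, Ephb1 and Ephb2 had peaks in both lists, and Efnb1, Efnb3 and Ephb3, like Ephb4, at 15000 EMPs alone. Ephb6 had none. Of the alpha connexins other than Gja4 and Gja5, Gja3 had 872 bp and 4397 bp, whereas the widely expressed Gja1 had 0 bp in both lists. The Tec-family kinases Tec, Btk and Txk had no peak in either list, as Bmx had none.

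Other genes of vessel identity were read from lists of general knowledge, which were drawn up with earlier results of these data known. Among all protein-coding genes, 9.92% (500 EMPs) and 17.0% (15000 EMPs) had a peak within 3 kb of the TSS. Of 15 arterial genes, 9 did at 500 EMPs and 11 at 15000 EMPs. Those in both lists were the Notch ligands Dll4 and Jag1, the Notch effectors Hey1 and Hey2, the transcription factors Sox17, Foxc1 and Epas1, the chemokine receptor Cxcr4 and the receptor Acvrl1. Their coverage ran from 137 bp (Cxcr4) to 2632 bp (Sox17) at 500 EMPs and from 1711 bp (Jag1) to 6001 bp (Sox17) at 15000 EMPs. The Notch receptors Notch1 and Notch4 had none in either list. Of 6 venous genes, 1 (the semaphorin coreceptor Nrp2, 443 bp and 2776 bp) had a peak in both lists and Nt5e had one at 15000 EMPs. Of 11 lymphatic genes, 5 and 7 had a peak. Those in both lists were the receptor Flt4, the transcription factors Foxc2 and Tbx1, the glycoprotein gene Pdpn and Reln, with 843 to 2980 bp and 3558 to 5524 bp, and the lymphatic growth factor Vegfc and the receptor Lyve1 had none. Together 15 of 32 genes (46.9%) and 20 of 32 (62.5%) had a peak, beside 9.92% and 17.0% of all protein-coding genes.

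**Figure D4:**
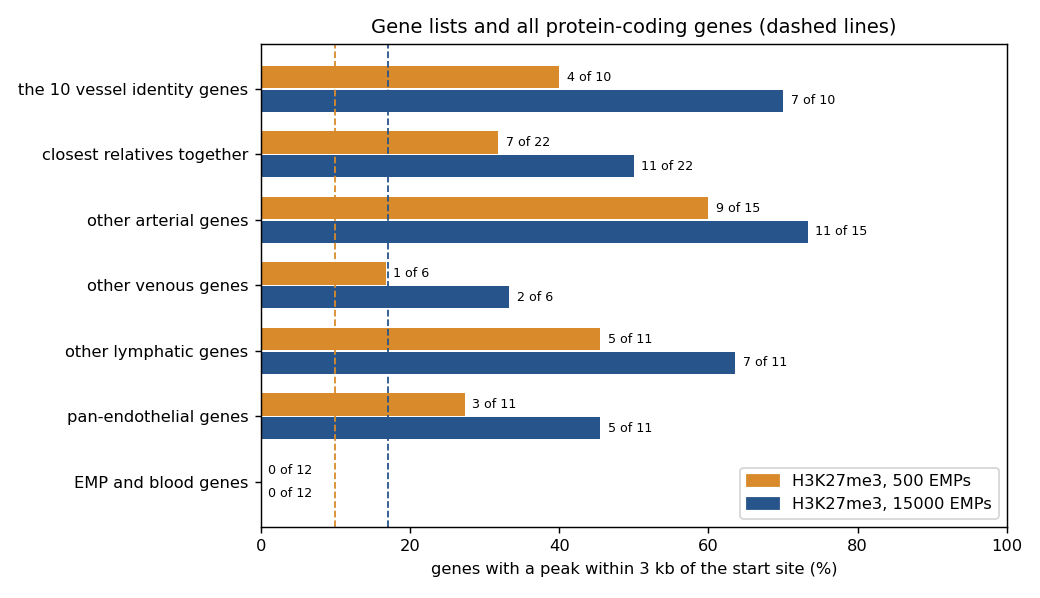
Share of each gene list with a peak within 3 kb of the TSS at 500 EMPs (orange) and 15000 EMPs (blue), with the counts beside the bars and the shares of all protein-coding genes, 9.92% and 17.0%, as dashed lines. The arterial and lymphatic lists, with 9 of 15 and 5 of 11 genes at 500 EMPs, lay above these lines in both libraries, the venous list rests on 1 and 2 of 6 genes, and none of the 12 EMP and blood genes had a peak.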

How the data were processed

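H3K27me3 CUT&RUN peaks of 500 and 15000 EMPs were read from 1 peak list and 1 annotated table per library. The deposited files hold positions, with no scores or counts. Per the methods, the authors aligned reads to mm10 (GRCm38) with Bowtie2 2.2.1 and called broad peaks with MACS2 2.1.2 against IgG, at p-value thresholds of 0.01 (500 EMPs) and 0.05 (15000 EMPs). Their listed commands name the other library under each threshold, and the lists were taken as labeled. The effect of the threshold on the number and width of peaks was not tested.

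Peaks, converted to 1-based coordinates, were placed on GENCODE vM21 genes. A gene counted as having a peak where at least 1 bp fell in the gene or within 10 kb, or within 3 kb of the TSS. Exons and introns are those of protein-coding transcripts, and other gene types were counted only as neighbors. Promoter sequences are from RefSeq (GRCm38.p6), which held 9 of the 10 genes. Interval code was tested on simulated peaks. Python 3.11.15 and scipy 1.17.1 were used. The genes and lists were chosen with earlier results of these data known. Named beside the 10 genes are their relatives, listed genes with a peak within 3 kb of the TSS in both libraries, neighbors sharing a peak (some are not reported here), and some listed genes picked after their values were seen. IgG libraries entered only through the authors' peak calling.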

Additional observations from a re-analysis of the deposited data

How the results depend on the processing

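No paired analysis was possible because each group had 1 library. The number of the 10 genes with a peak stayed within 1.5 times its value under every alternative tried: 3 to 5 at 500 EMPs and 6 to 9 at 15000 EMPs. A flank of 25 kb added Gja4 in both lists. The gene body alone left out Prox1 at 500 EMPs and Ephb4 at 15000 EMPs, and peaks of at least 500 bp left out Aplnr and Gja5 at 15000 EMPs. Bases under peaks fell from 26584 to 12456 bp and from 59392 to 30942 bp in the gene body alone. Without Nr2f2, an alternative chosen after seeing the data, they were 8195 and 28958 bp. At 500 EMPs the share of all protein-coding genes with a peak, 15.1%, became 12.6% with a 3-kb flank, 20.0% with 25 kb, 10.4% in the gene body, 7.97% with peaks of at least 500 bp, 13.4% without peaks of the smallest width, 9.92% within 3 kb of the TSS and 9.78% within 3 kb of a RefSeq start (also chosen later). At 15000 EMPs it went from 25% to 20.8%, 32.4%, 18.4% and 22.0% under the first 4 of these, 17.0% and 16.7% at the starts, and 25.8% over autosomal genes. When at least 50% of a peak had to be shared, 16.0% of the 15000 EMPs peaks at the 10 genes overlapped the other list in place of 40.0%, beside 5.52% of all peaks of that list. These peaks are wider than those of the 500 EMPs list. For bases around single starts above 0 bp, 16 alternatives stayed within 1.5 times and 17 did not.

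A peak list without depth or height sets the limit: a gene without a peak may carry the mark below the threshold, and 137 bp and 171 bp were the smallest widths listed.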

Other observations

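Of 11 genes used by endothelium of all kinds, 3 had a peak within 3 kb of the TSS at 500 EMPs (Cldn5, a tight junction gene, Erg, an endothelial transcription factor, and Flt1, a VEGF receptor) and 5 at 15000 EMPs, where Fli1 (454 bp) and Kdr (274 bp) joined them, beside 9.92% and 17.0% of all protein-coding genes. Flt1 had the most, with 1734 bp and 5427 bp. Cdh5, Tie1, Egfl7, Esam and Eng had no peak in their genes or flanks in either list, and Pecam1 had a single 137-bp peak, away from its TSS, at 500 EMPs.

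Mecom, a transcription factor gene of arterial endothelium and blood stem cells, had 1814 bp and 8771 bp in its gene and flanks and 0 bp within 3 kb of its TSS. Fcgr3 had 1060 bp and 2869 bp, likewise with 0 bp near the TSS. Of 3 genes of mesenchyme, Pdgfra (1532 bp and 6001 bp) and Col1a1 (524 bp and 3001 bp) had peaks within 3 kb of the TSS. Of 3 genes of the visceral endoderm, Afp, Apoa1 and Ttr, 0 did, which cannot be told from the shares of 9.92% and 17.0% over all protein-coding genes at this number of genes.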
